A study of Sus scrofa domesticus with 28 samples.

Results

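ASPN and LUM are the pig genes for asporin and lumican, which belong to the small leucine-rich proteoglycans. They were followed over control skin and early, mid and late scar, and by scar pigmentation and pressure treatment. The members were every probe whose transcript accession maps to either gene in RefSeq, which gave 1 probe for ASPN (NCBI gene 100511749) and 9 probes for LUM (NCBI gene 100152607), 10 of 43603 probes on the array. The 2 genes are 2 of 18760 features tested, 2646 of which carry a gene symbol. All 10 probes were well above background in the biopsy channel on 28 of 28 arrays, no spot of theirs was saturated or marked as an outlier, and no value was missing.

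Small leucine-rich proteoglycans are secreted proteins whose curved core of leucine-rich repeats binds collagen. Lumican limits the width of collagen fibrils in skin and cornea, and in the cornea it carries keratan sulfate chains. Asporin has a stretch of aspartic acid residues near its start and no typical glycosaminoglycan chain, and it is known to bind collagen and to restrain TGF-beta and BMP2 signalling in human and mouse cells of cartilage and the periodontal ligament. Both are made mainly by fibroblasts and related matrix-forming cells. In the RefSeq annotation of Sscrofa11.1, ASPN lies between OMD and ECM2, and LUM lies between DCN and KERA. These neighbours belong to the same family or, for ECM2, are closely related to it.

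The biopsies came from 2 juvenile castrated male red Duroc pigs, numbered 49 and 50, of a breed used as a model of thick, raised scars. Of the 28 biopsies, 4 were control skin, 4 early hyper and 4 early hypo scar (all sham treated), and 2 came from each of the 8 combinations of mid or late scar with pressure or sham treatment and hyper or hypo pigmentation. Each animal gave equal numbers of biopsies to every group. RNA of each biopsy was labelled with Cy5 and hybridised with Cy3-labelled universal pig reference RNA, without dye swap. The design allows no separation in several places. Every pressure biopsy came from the right side and every mid or late sham biopsy from the left, so treatment and side cannot be told apart. A code in the sample titles differs between all hyper and all hypo biopsies, so pigmentation and whatever it marks cannot be told apart either. With only 2 animals, p-values here reflect how biopsies vary within these pigs, which says little of other pigs. The small number of arrays sets the precision.

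On single arrays 31.4 to 55.7% of probes had Cy5 signal well above background. Fibroblast markers were measured for 5 of 11 listed genes (COL1A2, DCN, THY1, DPP4 and CDH11), and keratinocyte markers for 3 of 14 (KRT2, DSG1 and IVL). Skeletal muscle markers (14 of 16 measured) were high on 3 arrays, with a mean level 2.76, 4.39 and 4.77 log2 units above the average array, which were 1 early hypo biopsy of animal 50 and the mid and late pressure hyper biopsies of animal 49. Values below are log2 ratios of biopsy to reference, a level for a single array, and differences between groups are given ± SE with the Benjamini-Hochberg adjusted p of limma over all features. A gene was called where that p was under 0.05. Where LUM is given by 1 value it is that of its brightest probe, and the mean of its 9 probes is given beside it. Ratios of different probes are not comparable as levels, so only differences between groups are compared between the 2 genes. Those differences varied between probes of LUM as well, as given below. The arrays measure RNA of the whole biopsy, in which more cells of a type and more RNA per cell cannot be told apart.

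In early scar ASPN was many times higher than in control skin. The 8 early biopsies lay between 5.29 and 6.34 with a median of 5.73, against 1.78, 0.71, 0.37 and 2.05 in the 4 control biopsies. The groups did not overlap, and the lowest early value was above the highest control value by more than the whole range of either group. The difference was 4.55 ± 0.51 (adjusted p = 1.51e-06), which is 23.4-fold, with a 95% confidence interval of 3.48 to 5.61. Without the cap on local background that was part of the processing it was 2.96 and still called in limma. The reference signal behind these ratios was weak. Raw Cy3 was 57 to 65 in the control biopsies, where raw Cy5 was 114.5 to 278.5. In Cy3 the ASPN probe was well above background on 27 of 28 arrays. By the scanner program's processed signals the control biopsies had log2 ratios of 1.31 to 3.69 and the early ones 6.54 to 7.75. The rise of 4.55 was the 2nd largest among the 2646 features with a symbol. The call is read against a background in which 38.8% of all features were called in this comparison, 24.1% being higher in early scar, and 16% of features had no overlap with higher values in early scar.

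LUM also rose in early scar, and by less. Its brightest probe lay between 3.37 and 4.68 with a median of 3.88 in the 8 early biopsies, against 2.43, 1.92, 0.90 and 2.31 in the control biopsies. These groups did not overlap either. The difference was 2.02 ± 0.31 (adjusted p = 4.75e-05), or 4.06-fold. The mean of the 9 probes gave 2.75 ± 0.40 (adjusted p = 2.32e-05).

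Against control skin, mid and late scar were taken with pressure and sham biopsies together, while early scar was sham only. In mid scar ASPN lay between 2.60 and 5.73 with a median of 4.28, again above every control biopsy. The difference from control skin was 3.04 ± 0.51 (adjusted p = 0.00023), or 8.24-fold, and it was the largest rise among the features with a symbol. LUM lay between 2.37 and 3.75 with a median of 3.31, so that its lowest mid biopsy was below the highest control biopsy. LUM rose by 1.29 ± 0.31 (adjusted p = 0.00392), and by 1.46 ± 0.40 (adjusted p = 0.00832) over the mean of the 9 probes. In this comparison 33.8% of all features were called, 22.1% being higher, and 7.39% had no overlap with higher values in mid scar. Without the background cap neither gene was called (ASPN 2.01, adjusted p = 0.0883, and LUM 1.08, adjusted p = 0.062).

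In late scar, pressure and sham together, ASPN spread widely, between 1.92 and 5.92 with a median of 3.29. Its lowest biopsies overlapped with the highest control biopsy. The difference from control skin was 2.24 ± 0.51 (adjusted p = 0.00178), or 4.73-fold, and ranked 7th among the features with a symbol. LUM lay between 1.89 and 3.65 with a median of 3.08, overlapping with control skin. LUM rose by 1.04 ± 0.31 (adjusted p = 0.0123) at its brightest probe. That call rests on the choice of probe and on 1 control biopsy. The mean of the 9 probes gave 0.99 ± 0.40 (adjusted p = 0.0546), and without the left control biopsy of animal 50, which had the lowest ASPN and LUM of all 28, the brightest probe gave 0.65 (adjusted p = 0.105). In this comparison 39.7% of all features were called, 26.3% being higher in late scar. Without the background cap ASPN was 1.42 higher and LUM 0.49 higher, and neither was called (adjusted p = 0.216 and 0.392).

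**Figure D1:**
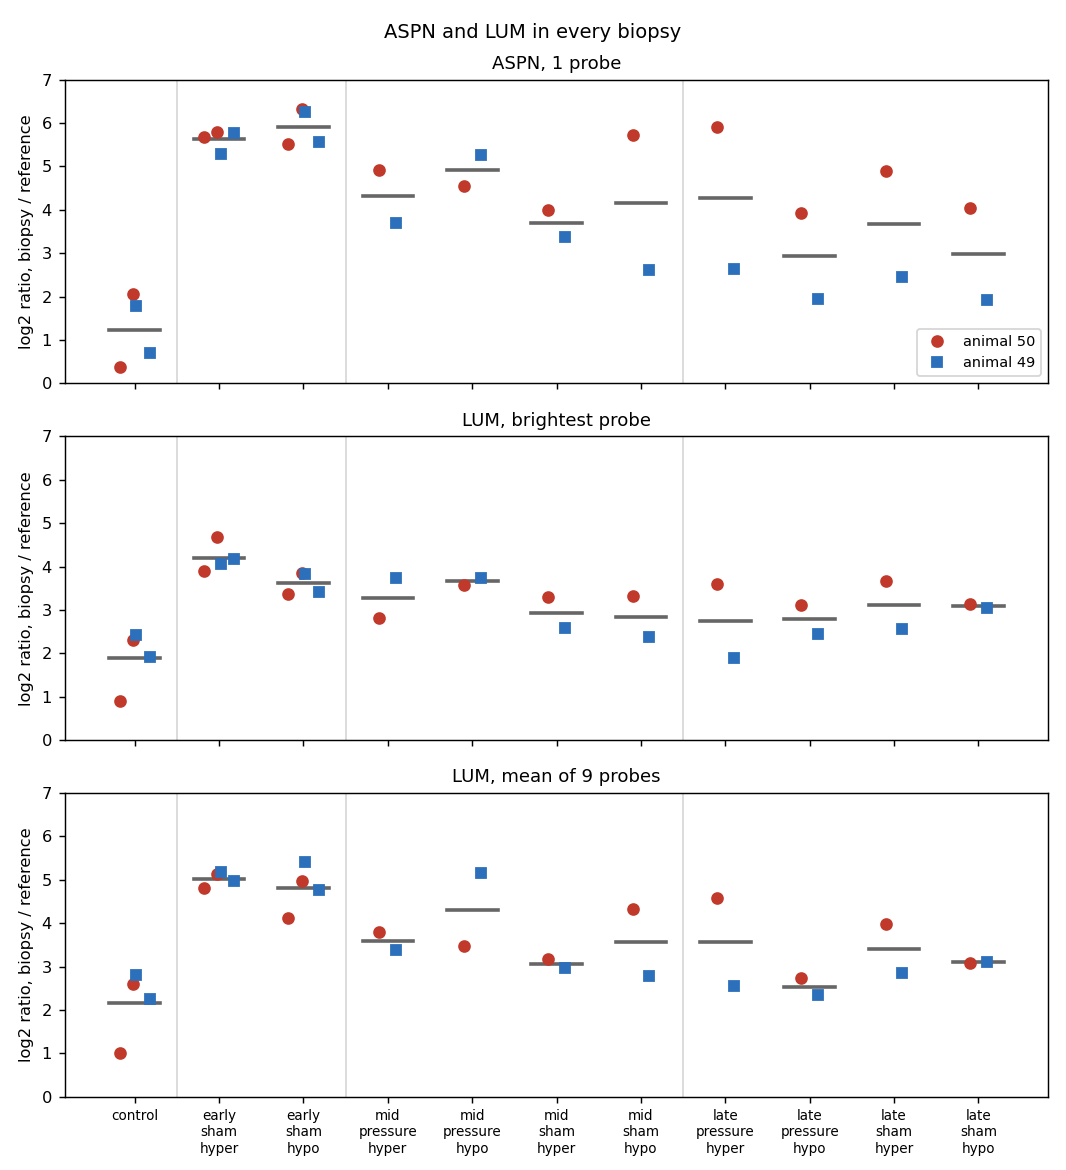
Log2 ratio of biopsy to reference (vertical axis) in each of the 28 biopsies, by group, for ASPN, for the brightest LUM probe and for the mean of the 9 LUM probes; points are biopsies of animal 50 (circles) and animal 49 (squares), and bars are group means. All 8 early biopsies lie above all 4 control biopsies in each panel, and ASPN in late scar spreads from 1.92 to 5.92.

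The next comparison asked how sham scar changed after the early phase. ASPN fell in both later phases. In sham scar it was 5.29 to 6.34 in the 8 early biopsies, 3.38, 4.0, 2.60 and 5.73 in the 4 mid biopsies and 2.46, 4.90, 1.92 and 4.04 in the 4 late biopsies. The late biopsies all lay below the early ones, and 1 mid biopsy, the sham hypo biopsy of animal 50, lay within the early range. ASPN fell by 2.45 ± 0.51 on the log2 scale in late relative to early sham scar (adjusted p = 0.00352), or 5.45-fold, where 19.9% of features were called, 10.3% being lower and 9.66% higher. In mid relative to early sham scar it fell by 1.85 ± 0.51 (adjusted p = 0.037), where 6.46% of features were called, 4.26% being lower and 2.19% higher. Without the background cap neither was called (-1.70 in late, adjusted p = 0.518, and -1.21 in mid, adjusted p = 1), and animal 50 alone gave -1.36 in late scar (adjusted p = 0.107). The mid call was lost in many alternatives, among them the fit without the animal block (adjusted p = 0.0776) and leaving out the mid sham hypo biopsy of animal 49 (-1.28, adjusted p = 0.279).

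LUM was lower in later than in early sham scar too, but whether it was called depended on the probe. In sham scar its brightest probe was 3.37 to 4.68 in the early biopsies, 2.57, 3.30, 2.37 and 3.32 in the mid biopsies and 2.55, 3.65, 3.04 and 3.13 in the late biopsies. The difference was -1.02 ± 0.31 in mid (adjusted p = 0.0547) and -0.82 ± 0.31 in late sham scar (adjusted p = 0.068), both short of the threshold. The mean of the 9 probes fell by 1.61 ± 0.40 in mid (adjusted p = 0.0217) and by 1.67 ± 0.40 in late sham scar (adjusted p = 0.00762). Late and mid scar, pressure and sham together, did not differ past the threshold. The late minus mid difference was -0.80 ± 0.42 for ASPN (adjusted p = 0.468) and -0.25 ± 0.26 for LUM (adjusted p = 0.733), in a comparison where 0.00533% of features, that is 1, were called.

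The 9 LUM probes did not all give the same size of change. In early scar against control skin probes 2 to 7, ordered by brightness, gave 2.94 to 3.25, and probe 8 and probe 9 gave 2.16 and 2.24. The brightest probe gave the smallest difference, 2.02. All 9 were called in early scar, 8 in mid scar (all but probe 8) and 3 in late scar (probes 1, 3 and 5). Of all features, 24.1%, 22.1% and 26.3% were called higher in these phases, so the late count was near that share. Against early sham scar, 8 of 9 fell in late sham scar, where 10.3% of all features fell, the exception being the brightest. Over the 28 arrays the correlation between pairs of these probes ran from 0.81 to 0.99 in 36 pairs, on arrays they share.

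At the brightest LUM probe the reference channel itself differed between phases, although every array received the same reference RNA. Its Cy3 signal averaged 10.20 ± 0.36 log2 units in early biopsies, 1.25 above the 8.95 ± 0.20 in control biopsies (SD, n = 8 and 4). Only 0.0735% of the kept probes had a larger such difference, and the median over all kept probes was -0.05. The other 8 LUM probes had Cy3 differences of 0.15 to 0.66, and ASPN 0.28. For ASPN, 2.42% of the kept probes had a larger one. In the Cy5 channel alone the brightest probe differed by 3.27 ± 0.43 between early scar and control skin (adjusted p = 7.54e-06), within the 2.42 to 3.44 of the other 8 LUM probes. ASPN differed by 4.82 ± 0.58 in Cy5 alone (adjusted p = 2.85e-06). What moved the Cy3 signal was not tested.

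**Figure D2:**
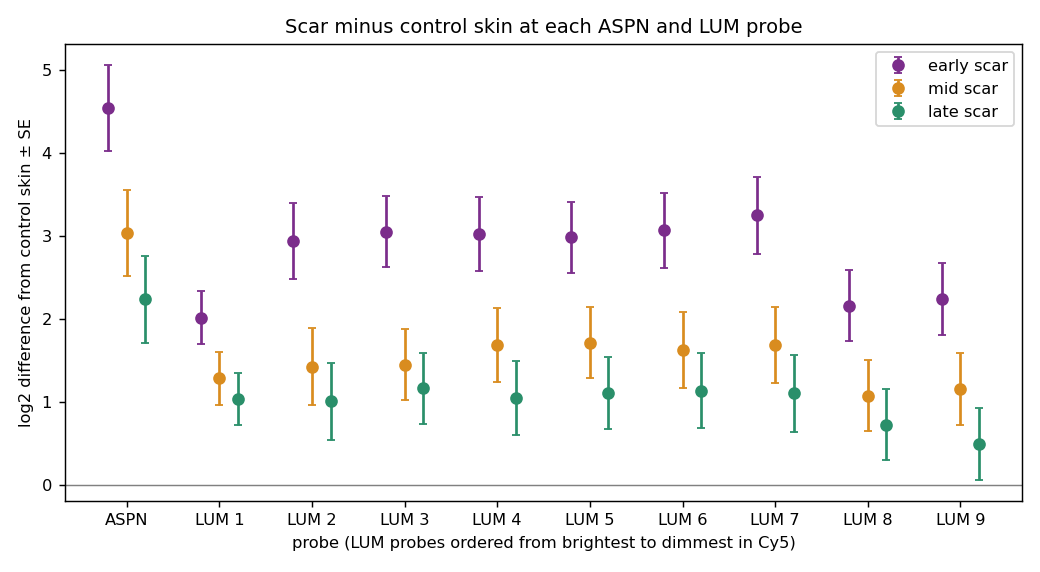
Log2 difference from control skin (vertical axis, ± SE) in early, mid and late scar at the ASPN probe and at each of the 9 LUM probes, ordered from brightest to dimmest along the horizontal axis. LUM probe 1 has the smallest early difference, 2.02, against 2.94 to 3.25 at probes 2 to 7, and every probe has its largest difference in early scar.

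Whether ASPN changed by more than LUM was tested on the difference of their log2 ratios in each array. ASPN has 1 probe, and the 9 LUM probes themselves gave early differences of 2.02 to 3.25. The test compares probes, so a difference between the genes cannot be told apart from one between their probes. Early scar minus control skin was larger for ASPN by 2.53, the difference of ratios being 1.86 ± 0.52 in early and -0.66 ± 0.40 in control biopsies (SD, n = 8 and 4). The exact two-sided permutation test gave p = 0.00202, the smallest it can give, and 0.00606 after adjustment over the 3 phases. Without the background cap it was 1.16 (adjusted p = 0.281). In mid scar the excess was 1.75 (exact permutation, adjusted p = 0.0121), and in late scar 1.2 (adjusted p = 0.0687). Against the mean of the 9 LUM probes the excess was smaller in early scar, 1.79 (exact permutation, adjusted p = 0.00303), 1.58 in mid (adjusted p = 0.00303) and 1.26 in late scar (adjusted p = 0.0343). From early to late sham scar ASPN fell more than the brightest LUM probe, by 1.63 (exact permutation p = 0.00606), and this was not past the threshold against the mean of the 9 probes (-0.78, exact permutation p = 0.0808).

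The 2 animals were alike in early scar and apart in late scar. In early scar ASPN averaged 5.83 ± 0.35 in animal 50 and 5.72 ± 0.41 in animal 49 (SD, n = 4 each). In mid scar it averaged 4.80 ± 0.73 in animal 50 and 3.74 ± 1.12 in animal 49. In late scar the biopsies of animal 50 had 4.90, 4.04, 5.92 and 3.94, and those of animal 49 had 2.46, 1.92, 2.63 and 1.95. The late values of the animals did not overlap, and the difference of 2.46 had the smallest p that the exact permutation test can give with 4 biopsies each, 0.0286, or 0.129 adjusted over 9 such tests. Of all features, 4.71% had late values in animal 50 wholly above those in animal 49, and 1.7% wholly below.

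Control skin gave 0.37 and 2.05 in animal 50 and 1.78 and 0.71 in animal 49. Late scar minus control skin was accordingly 3.49 ± 0.44 in animal 50 alone (adjusted p = 0.00418, with 25.4% of features called) and 0.99 ± 0.30 in animal 49 alone (adjusted p = 0.0318, with 27.1% called). In a fit of 1 animal each mid or late group holds 1 biopsy, so the SE and p take their spread from the control and early groups only, and the late biopsies of animal 50 themselves had an SD of 0.92. The interaction of animal and late scar was 2.49 ± 0.66, with an unadjusted p of 0.00387 from limma that was 0.954 after adjustment over all features. It was 5th in size among the features with a symbol, and 0% of features were called in limma (877 had an unadjusted p under 0.05).

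LUM at its brightest probe showed a similar split with smaller values. In late scar its brightest probe had 3.65, 3.13, 3.61 and 3.12 in animal 50 and 2.55, 3.04, 1.89 and 2.45 in animal 49, without overlap (difference 0.90, exact permutation p = 0.0286, adjusted p = 0.129). The mean of the 9 probes overlapped between the animals, with a difference of 0.88 (exact permutation p = 0.143). Alone, animal 50 gave a late minus control difference of 1.77 ± 0.40 (adjusted p = 0.0186), and animal 49 gave 0.31 ± 0.20 (adjusted p = 0.284).

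Some other measures split the same late biopsies, and some did not. The mean level of the 5 measured fibroblast markers lay between -0.41 and 0.61 log2 units in animal 50 and between -1.07 and -0.68 in animal 49, relative to the average array. Endothelial markers did not overlap either, at 0.25 to 1.13 in animal 50 and -0.16 to 0.02 in animal 49, nor did adipocyte markers, at -0.93 to -0.60 in animal 50 and -0.49 to 1.59 in animal 49. Skeletal muscle markers overlapped, at -0.81 to 0.47 in animal 50 and -0.52 to 4.77 in animal 49, where 2 biopsies were high (1.63 and 4.77). Markers of keratinocytes, of macrophages, and of myofibroblasts and smooth muscle overlapped between the animals too. A number in the sample titles, with no stated unit, also differed, as 3 of the 4 late biopsies of animal 49 had a higher number than any of animal 50. The part of these in the ASPN values was not tested.

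**Figure D3:**
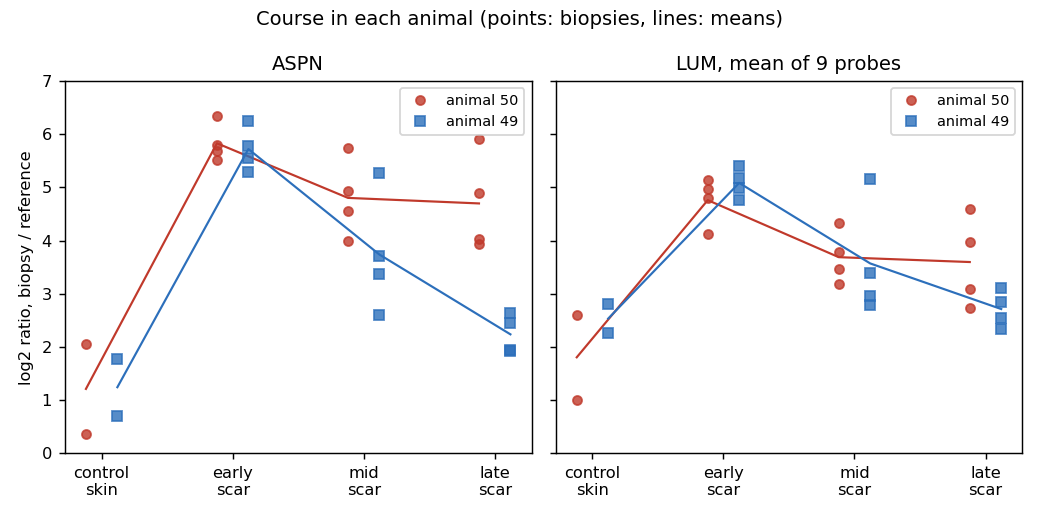
Log2 ratio of biopsy to reference (vertical axis) for ASPN and for the mean of the 9 LUM probes in control skin and early, mid and late scar (horizontal axis); circles are biopsies of animal 50, squares those of animal 49, and lines join the means of each animal. For ASPN the means lie close in early scar, at 5.83 and 5.72, and separate by late scar, at 4.70 and 2.24.

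The study's main question concerned scar pigmentation. ASPN and LUM were not called in any comparison of hyper with hypo scar. Over 12 pairs of biopsies of the same animal, side and phase, ASPN was higher in the hyper biopsy in 8, with a mean difference of 0.07 ± 1.08 (SD, exact sign-flip permutation p = 0.836). The limma difference was 0.07 ± 0.34, with a 95% confidence interval of -0.65 to 0.78, in a comparison where 0.016% of features were called. For LUM 7 of 12 pairs were higher in hyper scar, with a mean difference of 0.14 ± 0.52 (SD, exact sign-flip permutation p = 0.372) and a limma interval of -0.29 to 0.58.

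The pairs differed by phase. In late scar ASPN was higher in the hyper biopsy of 4 of 4 pairs, by 0.54, 0.69, 0.86 and 1.98. These pairs were not all matched in the number in the sample titles. In the pairs of 0.54 and 1.98 the hyper biopsy had the lower number, and in those of 0.69 and 0.86 the numbers were equal. The late means were 3.98 ± 1.71 in hyper and 2.96 ± 1.19 in hypo biopsies (SD, n = 4 each), and the limma difference was 1.02 ± 0.59 (adjusted p = 0.331). In late scar 5.02% of features were called between hyper and hypo, 4.51% being lower in hyper scar, and ASPN was not among them. In early scar the ASPN difference was -0.28 ± 0.59 (adjusted p = 0.998) and in mid scar -0.54 ± 0.59 (adjusted p = 0.81), with 2 of 4 pairs higher in each. The mid pairs differed in title number too, except the right pair of animal 49, which was lower in hyper scar. In each mid pair that differed, ASPN was higher in the biopsy with the lower number. The part of this number in the mid and late differences was not tested. In limma 0% of features were called in early and in mid scar (866 and 1764 had an unadjusted p under 0.05). The change of the difference between early and late scar was 1.30 ± 0.84 (adjusted p = 0.388), where 4.88% of features were called, 4.54% being negative.

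LUM at its brightest probe was higher in the early hyper biopsy of 4 of 4 pairs, by 0.23 to 0.82. The early means were 4.21 ± 0.34 in hyper and 3.62 ± 0.26 in hypo biopsies (SD, n = 4 each), and the limma difference was 0.58 ± 0.36 (adjusted p = 0.998). Over the mean of the 9 probes 3 of 4 pairs were higher, and the difference was 0.21 ± 0.46 (adjusted p = 0.997). In late scar the brightest probe gave -0.01 ± 0.36 (adjusted p = 0.991) and the mean of the 9 probes 0.67 ± 0.46 (adjusted p = 0.418), so the sign depended on the probe. With 4 pairs a sign-flip test cannot give a p below 0.125.

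Pressure treatment was compared with sham in mid and late scar over 8 pairs of the same animal, phase and pigmentation. ASPN was higher in the pressure biopsy in 6 of 8 pairs, with a mean difference of 0.48 ± 1.11 (SD, exact sign-flip permutation p = 0.266). The limma difference was 0.48 ± 0.42 (adjusted p = 0.92), with an interval of -0.39 to 1.35. LUM was higher in 3 of 8 pairs, with a mean difference of 0.12 ± 0.77 (SD, exact sign-flip permutation p = 0.641) and an interval of -0.41 to 0.66. No feature was called between pressure and sham in limma (959 had an unadjusted p under 0.05), so the share called was 0%.

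In mid scar ASPN had 3.71, 4.93, 5.26 and 4.56 in the pressure biopsies, against 3.38, 4.0, 2.60 and 5.73 in the sham biopsies paired with them. Those pairs gave 0.33, 0.93, 2.66 and -1.18, so 1 pair of each sign was larger than 1 log2 unit. In late scar ASPN had 2.63, 5.92, 1.95 and 3.94 in the pressure biopsies, against 2.46, 4.90, 1.92 and 4.04 in the sham biopsies. For LUM at its brightest probe the late pressure biopsy was lower in 4 of 4 pairs, by 0.01 to 0.67, and the limma difference was -0.33 ± 0.36 (adjusted p = 0.957). Over the mean of the 9 probes it was lower in 3 of 4. In mid scar LUM was higher with pressure in 3 of 4 pairs, with a difference of 0.58 ± 0.36 (adjusted p = 0.999). The change of the pressure difference between mid and late scar was -0.91 ± 0.51 for LUM (adjusted p = 0.973) and -0.40 ± 0.84 for ASPN (adjusted p = 0.987). Pressure minus sham differed between hyper and hypo scar by 0.26 ± 0.84 for ASPN (adjusted p = 0.9) and -0.27 ± 0.51 for LUM (adjusted p = 0.814).

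The side itself could be compared where no pressure was given. In control and early biopsies the right minus left difference was 0.22 ± 0.28 for ASPN and 0.31 ± 0.23 for LUM (adjusted p = 1 for both), with 0% of features called in limma (485 had an unadjusted p under 0.05). In mid scar of animal 49 alone, pressure minus sham was 1.49 ± 0.35 for ASPN (adjusted p = 0.0353) and 1.26 ± 0.23 for LUM (adjusted p = 0.0103), in a fit that called 4.89% of features, against 0% in both animals together. In animal 50 alone it was -0.13 ± 0.51 for ASPN and -0.11 ± 0.46 for LUM. The change of the LUM difference between mid and late scar was -1.90 ± 0.32 in animal 49 alone (adjusted p = 0.0247, with 1.5% of features called) and 0.08 ± 0.65 in animal 50 alone (adjusted p = 0.999). These fits too rest on the spread of the control and early groups, and the difference between the animals was not tested here. The mid hypo pair of animal 49 also differed in title number, 91 with pressure and 98 with sham. So did the mid hyper and mid hypo pairs of animal 50, the late hyper pair of animal 49 and the late hypo pair of animal 50. Among these, ASPN was higher in the biopsy with the lower number in every pair except the late hyper pair of animal 49. Of the mid pairs among these, LUM at its brightest probe was so only in the hypo pair of animal 49. The part of this number in the pressure differences was not tested.

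**Figure D4:**
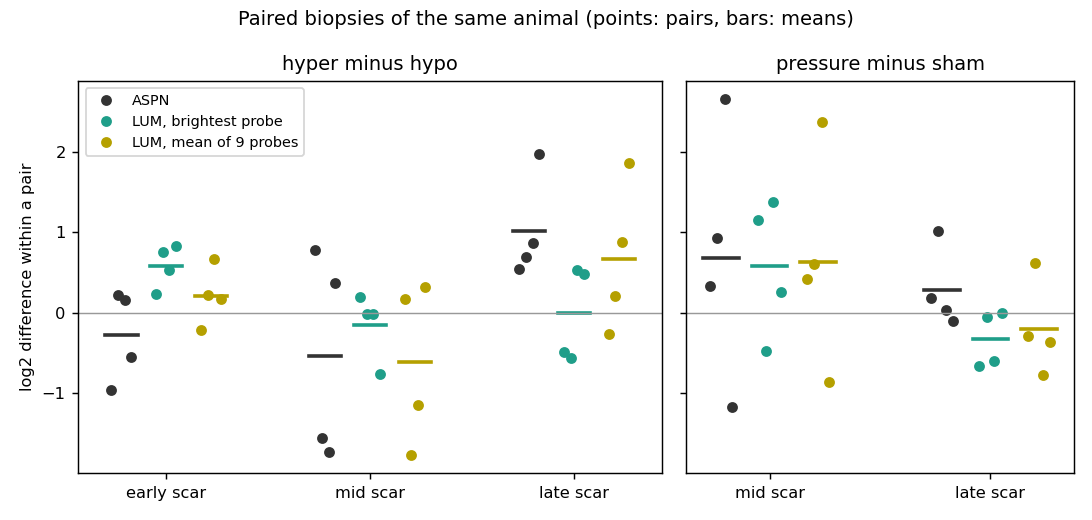
Log2 difference within pairs of biopsies of the same animal (vertical axis), hyper minus hypo in early, mid and late scar on the left and pressure minus sham in mid and late scar on the right, for ASPN, the brightest LUM probe and the mean of the 9 LUM probes; points are pairs and bars are means. All 4 late ASPN pairs lie above 0 for hyper minus hypo, and the mid pairs lie on both sides of 0 for pressure minus sham.

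Of 16 other genes of the family listed, only DCN was measured here. DCN encodes decorin, which binds collagen fibrils and TGF-beta. It lay between 2.48 and 4.14 with a median of 3.52 in early scar, against -0.12 to 1.78 in control skin, without overlap. Of all features, 16% had no overlap with higher values in early scar, and 24.1% were called higher. DCN rose by 2.51 ± 0.40 in early scar (adjusted p = 7e-05), and each of its 4 probes was called, with differences of 2.05 to 2.51. In mid and late scar DCN was 1.04 ± 0.40 (adjusted p = 0.0523) and 0.90 ± 0.40 (adjusted p = 0.083) above control skin, short of the threshold, although 1 of its 4 probes was called in late scar. It fell by 1.92 ± 0.40 in mid (adjusted p = 0.011) and by 1.46 ± 0.40 in late relative to early sham scar (adjusted p = 0.017). The family members OPTC and NYX had probes that were well above background on 0 and at most 1 array.

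Collagens that bind these proteoglycans or share fibrils with those that do were measured for 4 of 13 listed genes. In early scar 3 of 4 rose, where 24.1% of all features did, with a median of 3.16 over the 4 against 0.11 over all features. The collagen V chain COL5A2 rose by 3.38 ± 0.46 (adjusted p = 1.38e-05), the collagen I chain COL1A2 by 3.38 ± 0.66 (adjusted p = 0.000455) and the collagen V chain COL5A1 by 2.94 ± 0.42 (adjusted p = 1.96e-05). The third collagen V chain, COL5A3, was 0.30 ± 0.17 higher (adjusted p = 0.175). In mid scar 3 of 4 rose (22.1% of all features) and in late scar 2 of 4 (26.3% of all features), COL5A2 (1.5 ± 0.46, adjusted p = 0.0145) and COL5A1 (1.76 ± 0.42, adjusted p = 0.00238). COL1A2 and COL5A2 fell in late relative to early sham scar.

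Of 15 enzymes that build or degrade keratan sulfate 3 were analysed, and they rose in early scar in 3 of 3 cases (24.1% of all features), with a median of 1.11 against 0.11 over all features. These were GALNS, a lysosomal sulfatase that breaks the chain down (2.12 ± 0.23, adjusted p = 9.62e-07), the fucosyltransferase FUT8 (1.07 ± 0.19, adjusted p = 0.00018), and HEXA, part of a lysosomal glycan-degrading enzyme (1.11 ± 0.29, adjusted p = 0.00418). GALNS and HEXA act in degradation and on other glycans as well, and the enzymes that elongate or sulfate the chain were not analysed here. In mid scar GALNS and FUT8 rose, 2 of 3 where 22.1% of all features did, and in late scar GALNS (1.11 ± 0.23, adjusted p = 0.000806), 1 of 3 where 26.3% did.

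Ligands, receptors and proteases known to bind or act with asporin or lumican in other species were measured for 15 of 22 genes. In early scar 6 rose and 5 fell, where 24.1% of all features rose and 14.8% fell, with a median of 0.36 against 0.11 over all features. Among those that rose, MMP14, a membrane protease that cleaves lumican, was 3.56 ± 0.41 higher (adjusted p = 3.08e-06), and the integrin beta-1 chain ITGB1, part of a lumican receptor, 2.35 ± 0.18 (adjusted p = 1.9e-08). The growth factors TGFB3 (2.0 ± 0.32, adjusted p = 7.18e-05) and TGFB1 (1.33 ± 0.23, adjusted p = 0.000133) rose, as did the gelatinase MMP2 (1.84 ± 0.33, adjusted p = 0.000196) and the lipopolysaccharide receptor CD14 (0.44 ± 0.12, adjusted p = 0.00679). Those that fell were BMP2, a ligand that asporin binds (-1.24 ± 0.18, adjusted p = 3.22e-05), the growth factor receptor EGFR (-1.14 ± 0.28, adjusted p = 0.00305), the TGF-beta inhibitor SMAD7 (-0.84 ± 0.20, adjusted p = 0.00225), the innate immune receptor TLR4 (-0.58 ± 0.18, adjusted p = 0.0133) and the integrin chain ITGA2 (-0.43 ± 0.13, adjusted p = 0.0117). The spots of MMP14, BMP2 and ITGA2 were each missing on 1 late array, which the fit left out. The TGF-beta receptor TGFBR1 was 0.49 ± 0.19 higher (adjusted p = 0.0504).

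In mid scar 6 of these 15 rose and 3 fell, where 22.1% of all features rose and 11.7% fell. In late scar 7 rose and 3 fell, where 26.3% of all features rose and 13.4% fell. With only 15 genes, the 3 that fell in each of these phases were not far above the share of all features. BMP2 was lower in each phase, by 1.33 ± 0.18 in mid (adjusted p = 3.7e-05) and 1.09 ± 0.19 in late scar (adjusted p = 0.000177). FAS, a death receptor, was 0.06 ± 0.28 above control skin in early scar (adjusted p = 0.893) and rose by 1.03 ± 0.28 in late scar (adjusted p = 0.00568). In late relative to early sham scar ITGB1 fell by 1.42 ± 0.18 (adjusted p = 0.000325) and MMP14 by 1.67 ± 0.49 (adjusted p = 0.0223), while FAS (1.16 ± 0.28, adjusted p = 0.00787) and EGFR (0.85 ± 0.28, adjusted p = 0.0376) rose. None of the members of these 4 lists was called between hyper and hypo or between pressure and sham over all phases. EGFR was called in the change of hyper minus hypo between early and late scar (-1.83 ± 0.46, adjusted p = 0.0263).

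**Figure D5:**
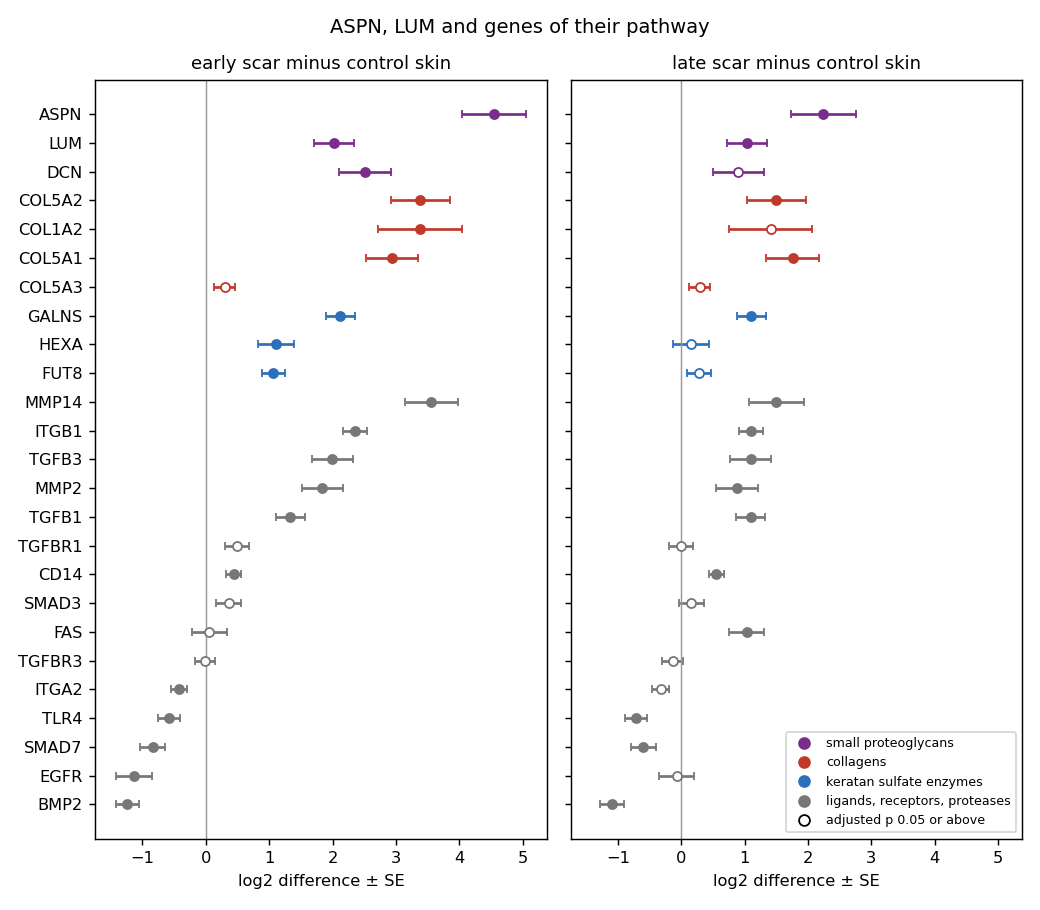
Log2 difference from control skin (horizontal axis, ± SE) in early scar (left) and late scar (right) for ASPN, LUM (brightest probe) and the measured genes of the 4 lists, coloured by list; filled points have an adjusted p under 0.05. ASPN has the largest difference in both panels, 4.55 and 2.24, and DCN is called in early scar and not in late scar.

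Cell type markers moved over the same phases. The mean fibroblast marker level lay between -1.77 and -0.75 log2 units in control skin, 0.31 and 1.77 in early, -0.66 and 0.46 in mid and -1.07 and 0.61 in late scar, so early scar and control skin did not overlap. Of the 5 measured fibroblast genes 5 rose in early, 3 in mid and 1 in late scar, where 24.1%, 22.1% and 26.3% of all features rose. In late relative to early sham scar 3 of the 5 fell, where 10.3% of all features did, and 2 of 3 keratinocyte markers rose, where 9.66% did. Endothelial markers rose in 5 of 5 cases at each phase, macrophage markers in 5 of 6, 4 of 6 and 1 of 6, and adipocyte markers fell in 5 of 7, 5 of 7 and 3 of 7, where 14.8%, 11.7% and 13.4% of all features fell. The late counts of fibroblast and macrophage markers were no higher than the share over all features. The part of these shifts in the ASPN and LUM results was not tested. Without the 3 arrays of high skeletal muscle markers, ASPN was 4.69 above control skin in early, 3.08 in mid and 2.53 in late scar, as large as with them.

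The genes most like ASPN over the 28 arrays, among 2644 others with a symbol, were COL5A2 (Pearson r = 0.966), COL5A1 (0.951), the endoplasmic reticulum protein CKAP4 (0.943), the collagen chaperone SERPINH1 (0.941), ITGB1 (0.941), the large proteoglycan VCAN (0.936), OLFML2B (0.934) and MMP2 (0.931). After the 11 group means were removed, the same 8 genes had r from 0.831 (VCAN) to 0.926 (COL5A2). The genes most like LUM were FKBP10, an enzyme that folds collagen in the endoplasmic reticulum (0.924), the retinoic acid binding protein CRABP1 (0.902), the matricellular protein POSTN (0.901), DCN (0.900), COL5A2 (0.890), the collagen-binding glycoprotein SPARC (0.881), COL5A1 (0.880) and COL1A2 (0.879), with r of 0.728 (COL5A1) to 0.852 (DCN) after removal of the group means. COL5A1 and COL5A2 were on both lists. ASPN and LUM correlated at 0.867 (0.746 within groups, and 0.921 with the mean of the 9 LUM probes), which placed LUM 44th for ASPN and ASPN 11th for LUM. The points share arrays, animals and a reference RNA, and the correlations are given as a description.

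Slides carried 4 arrays each, and 3 of 7 slides held both scar and control biopsies. Within those slides, early scar exceeded control skin by 5.08 and 5.57 for ASPN and by 2.76 and 2.73 for LUM. Mid scar exceeded it by 3.35 and 5.02 for ASPN and by 1.38 and 1.39 for LUM. Late scar differed by 0.00, 3.23 and 2.26 for ASPN and by 0.67, 1.2 and 0.98 for LUM. The slide with no late ASPN difference held the late sham hypo biopsy of animal 49 and the 2 control biopsies with the highest ASPN.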

How the data were processed

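Each of 28 skin biopsies was hybridised to 1 array (7 slides of 4 arrays, 1 scan day). The scanner program was Feature Extraction 10.7.1.1 and gave, per the file headers, each spot's median intensity and local background, the processed intensity of both channels, and their log10 ratio. The authors also deposited a log2 table. On every array 100% of its values lay within 0.001 of the log2 ratio of processed signals, with array medians of 0.01 to 0.26, and further centring or scaling was not seen.

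Median intensities were corrected with normexp (limma 3.58.1, R 4.3.3, offset 50), after local backgrounds above an array's 99th percentile in that channel were set to it, and normalised by loess within arrays. Outlier spots were set missing (0.53% of feature values). A probe was kept where Cy5 was well above background on at least 4 arrays, and the probe of highest mean Cy5 signal stood for its gene. One limma model held 11 group means with the animal as a block, since biopsies of 1 animal are paired by the labels. Deviations of early hyper and hypo biopsies of the same animal and side correlated at 0.063 to 0.259. The Benjamini-Hochberg adjustment ran over all 18760 features per comparison, and calls needed an adjusted p under 0.05. Single values were tested by exact two-sided permutation. The script was tested on simulated data. Members, gene lists and the background cap were chosen with earlier results of these data known. One list member is not reported here. Named genes were ASPN, LUM, measured list members and the 8 genes most correlated with each. Gene names come from RefSeq, which named 6924 of 43603 probes. Alternatives covered background, normalisation, filter, probe choice, blocks, each animal alone and each array left out.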

Additional observations from a re-analysis of the deposited data

Results flagged for a closer look

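The late scar minus control skin difference was larger in animal 50 than in animal 49 for ASPN, by 2.49 ± 0.66 (limma interaction, unadjusted p = 0.00387, adjusted p = 0.954), and for LUM, by 1.47 ± 0.58 (unadjusted p = 0.0304, adjusted p = 0.999). Both were looked at after the data were seen, and neither passed adjustment over all features. At its brightest probe LUM in late scar was higher in hyper than in hypo biopsies in both pairs of animal 50 and lower in both pairs of animal 49, so that the animals differed by 1.03 in this difference, which was not tested.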

How the results depend on the processing

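The early rises were the most stable results. ASPN was called in early scar in every alternative run (2.96 to 5.14), and so was LUM (1.63 to 3.27). Of 376 recomputed values of main results, with no single array left out, 292 kept their direction and side of the threshold, and of 496 with 1 array left out 465 did. Many of the 496 left out an array that was not in the comparison. There the difference could not move, so the 465 overstate how stable the results are. The background cap was chosen with earlier results known. The Cy3 signal of its brightest probe limits LUM, and the weak Cy3 signal of its single probe limits ASPN. The number of animals limits all comparisons. Leaving out the arrays of high muscle markers was an alternative chosen after seeing the data, as was each animal alone outside scar against control skin. Single LUM probes were run for 8 comparisons only. The causes of the changes below were not tested.

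Without the cap, ASPN was 2.01 in mid and 1.42 in late scar against control skin, LUM 1.08 and 0.49, and ASPN -1.21 in mid and -1.70 in late against early sham scar, none of them called. ASPN minus LUM was then 1.16 in early and 0.92 in mid scar and -0.73 in late against early sham scar, also not past the threshold. Hyper minus hypo over all phases was -0.12 for ASPN, and pressure minus sham -0.023 for LUM. The scanner's processed signals and the authors' table both gave -1.64 for ASPN in mid against early sham scar, not called, and 1.5 for ASPN minus LUM in late scar, past the threshold.

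With median centring in place of loess, the median of all features was -0.10 in late scar (0.10 with loess) and -0.18 in late against early sham scar (0.03 with loess). LUM was 0.12 in late scar, not called, and -1.37 in mid and -1.74 in late against early sham scar, both called, and ASPN minus LUM was 1.68 in late scar. In the Cy5 channel alone LUM was -1.88 in mid and -1.91 in late against early sham scar, both called, hyper minus hypo of ASPN was -0.050, and ASPN minus LUM was 1.01 in late scar and -0.78 in late against early sham scar. The mean of the 9 LUM probes gave 0.99 in late scar, -1.61 in mid and -1.67 in late against early sham scar, and ASPN minus LUM of 1.26 and -0.78.

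By single LUM probes, late scar was not called at 1.01, 1.05, 1.14, 1.11, 0.73 and 0.50 (probes 2, 4, 6, 7, 8 and 9), and mid scar was not called at 1.08 (probe 8). Mid against early sham scar was called at -1.88, -2.09, -1.68, -1.55, -1.83 and -1.82 (probes 2 to 7), and late against early sham scar at -1.87, -1.82, -1.84, -1.81, -1.82, -2.09, -1.36 and -1.57 (probes 2 to 9). Hyper minus hypo was -0.013 at probe 8. ASPN minus LUM in late scar passed at 1.23, 1.07, 1.51 and 1.74 (probes 2, 3, 8 and 9), and late against early sham scar did not at -0.58, -0.63, -0.60, -0.63, -0.63, -0.36 and -0.88 (probes 2 to 7 and 9).

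ASPN in mid against early sham scar lost its call with no replicate block (-1.85, adjusted p = 0.0776 in limma), with the replicate block of animal and side (-1.74), with slide as a fixed block (-1.92), with no filter (-1.85) and with an intensity trend and robust prior (-1.85). The replicate block of animal and side gave -0.18 for LUM pressure minus sham, and it and the fit without a block changed no other ASPN or LUM call. With slide as a fixed block LUM was -1.37 in mid and -1.56 in late against early sham scar, and as a random block -1.06 and -0.90, all called.

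In animal 50 alone ASPN was -0.96 in mid and -1.36 in late against early sham scar, not called, LUM late minus mid scar was 0.12 and LUM pressure minus sham -0.068. In animal 49 alone LUM was 0.31 in late scar, not called, and -1.40 in mid and -1.07 in late against early sham scar, called, ASPN late minus mid was -1.5 and called, and ASPN hyper minus hypo was -0.050. Without the arrays of high muscle markers LUM was -1.09 in mid and -0.88 in late against early sham scar, both called, and 0.080 in late minus mid scar.

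Values that were not called changed sign in several settings. LUM hyper minus hypo in late scar was 0.61 without the cap, 0.90 with median centring (adjusted p = 0.0702 in limma), 0.53 in Cy5 alone, 0.67 by the mean of probes, 0.20 and 0.026 with slide as a fixed and a random block, 0.51 in animal 50 alone and 0.36 without the muscle arrays. Its change between early and late scar was 0.23 without the cap, 0.60 with median centring, 0.047 in Cy5 alone and 0.46 by the mean of probes. The LUM difference of pressure minus sham between hyper and hypo scar was 0.75, 0.47, 0.27 and 0.25 in these same settings. LUM hyper minus hypo in mid scar was 0.54 with slide as a fixed block and 0.093 in animal 49 alone. LUM pressure minus sham in late scar was 0.15 with slide as a fixed block and 0.037 without the muscle arrays, and in mid scar -0.11 in animal 50 alone. For ASPN, pressure minus sham in mid scar was -0.13 in animal 50 alone, its change between mid and late scar 0.23 with slide as a fixed block, 0.58 in animal 50 alone and 0.11 without the muscle arrays, and its difference between hyper and hypo scar -1.09 in animal 49 alone. The same change for LUM was 0.082 in animal 50 alone and -1.90 in animal 49 alone, where it was called, as were pressure minus sham of ASPN (1.49) and LUM (1.26) in mid scar.

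With 1 array left out at a time, LUM in late scar was 0.65 to 1.27 and lost its call without the left control biopsy of animal 50. ASPN in mid against early sham scar was -2.41 to -1.28 and lost its call without any of 8 arrays, 5 early and 3 mid sham. LUM was -1.21 to -0.83 in mid and -1.05 to -0.59 in late against early sham scar, and became called without any of 7 arrays in mid and 3 in late scar. None of those 3, and few of those 7, were in the sham comparison. Without a control or pressure array the difference stayed at -1.02 in mid and -0.82 in late scar. Only the spread and the adjustment then changed. ASPN minus LUM was 0.95 to 1.44 in late scar. Hyper minus hypo of ASPN ran from -0.14 to 0.27 over all phases, from -0.60 to 0.016 in early and from -1.10 to 0.028 in mid scar, and that of LUM from -0.46 to 0.16 in mid and from -0.41 to 0.39 in late scar. Pressure minus sham of LUM ran from -0.075 to 0.32 overall and from -0.73 to 0.069 in late scar, and that of ASPN from -0.33 to 0.88 in late scar. The change of the pressure difference for ASPN ran from -1.01 to 0.20, and its difference between hyper and hypo scar from -0.35 to 0.86 for ASPN and from -0.67 to 0.13 for LUM. The right minus left difference of ASPN ran from -5e-04 to 0.42, and the animal difference in early scar from -0.70 to 0.98 for ASPN and from -0.051 to 1.35 for LUM.

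Counts of called features moved too. In late against early sham scar (3739) there were 11 without the cap, 5694 with median centring, 1079 with slide as a fixed block, 1064 in animal 50 alone and 2155 to 4080 with 1 array left out. In mid against early sham scar (1211) there were 2 without the cap, 1854 in Cy5 alone, 99 with the replicate block of animal and side, 211 with slide as a fixed block, 2565 in animal 49 alone, 4 in animal 50 alone and 24 to 1785 with 1 array left out. Animal 50 alone gave 2944 in early, 1794 in mid and 4620 in late scar (7288, 6339 and 7454 in both animals). Slide as a fixed block gave 4147 in mid scar, and leaving out 1 array 3899 to 6590.

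Among the lists, called collagens in late scar (2) numbered 0 without the cap and in animal 49 alone, 1 with median centring, 4 without the muscle arrays and 1 to 3 with 1 array left out. Called keratan sulfate enzymes numbered 1 in mid (2) and 0 in late scar (1) with median centring, 1 in mid scar in animal 50 alone, 2 in late scar with no filter and with slide as a fixed block, and 1 to 2 in mid scar with 1 array left out. Called ligands, receptors and proteases in late scar (10) numbered 4 with median centring, 6 in animal 49 alone and 6 to 10 with 1 array left out. DCN, not called in mid scar, was the 1 family gene called there with the filter at 14 arrays, with slide as a fixed or random block and without the muscle arrays, which also called it in late scar. With 1 array left out the number was 0 to 1 in mid and in late scar.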
